A study of Mus musculus with 22 samples.

Results

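Nintedanib was compared with vehicle among 12 mice with damaged livers, numbered 83 to 94 in their sample titles, out of 22 mice in the series. Nintedanib mice 83 to 91 formed the treated group (n = 9) and vehicle mice 92 to 94 the untreated one (n = 3). Nintedanib mouse 82 and vehicle mice 76 to 81 were set apart because their clock gene levels differed, so the 12 mice were selected on measured levels of the clock genes Dbp and Arntl. All 12 were male C57BL/6J mice that carried the same chemical injury, 1 dose of the carcinogen N-nitrosodiethylamine (DEN) and then carbon tetrachloride (CCl4) each week, a model of liver fibrosis with hepatocellular carcinoma. The drug was given at 50 mg/kg for 5 weeks to mice with established fibrosis, and the other mice received vehicle for as long. The 3 healthy control mice of the series, injected with saline and oil, appear below only as levels. RNA came from 20 mg of frozen liver outside tumours, hybridised to 1 array per mouse (Affymetrix HT MG-430), and levels are log2 expression values of 13392 genes. Each mouse is a separate animal by its title, and the labels tell of no batch. Treatment follows the order of the title numbers, so a batch that followed that order cannot be told apart from the drug.

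Nintedanib blocks the kinase activity of the receptors for vascular endothelial, platelet-derived and fibroblast growth factors, which act mainly on endothelial cells, stellate cells and fibroblasts. In liver, sinusoidal endothelial cells release bone morphogenetic proteins (BMPs), which act through SMAD proteins on hepatocytes and raise the Id genes and hepcidin, the hormone that limits iron uptake. Metallothioneins, small proteins that bind zinc and copper, are made by hepatocytes and are induced by metals, by glucocorticoids and in the acute phase response, in which the C/EBP transcription factors take part. Bulk liver cannot tell fewer cells of a type from less RNA per cell.

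In mice given nintedanib the metallothionein genes Mt2 and Mt1 and the transcription factor gene Cebpb stood above every vehicle mouse, and the SMAD target gene Id1 stood below every one. None of the 13392 genes passed an adjusted p of 0.05 in the limma fit of the 12 arrays (percent called 0.0). At an unadjusted p under 0.05 there were 695 genes (5.19%), close to the share that a threshold of 0.05 gives with no difference. Of them 350 were higher (2.61%) and 345 lower (2.58%) with nintedanib. Mt2, Mt1, Cebpb and Id1 were the 4 genes with an adjusted p under 0.10 (0.0299% of all genes). With the spread taken from all 22 arrays, 4 genes passed 0.05 (0.0299%), and these were Cebpb (adjusted p = 0.0302), Id1 (0.0302), Mt2 (0.0374) and Foxo1 (0.0374). Levels of the 9 and the 3 mice did not overlap for 159 genes (1.19%), 92 of them higher (0.687%) and 67 lower (0.5%) with nintedanib. Some genes separate in this way with no true difference, so a lack of overlap is a description and not a test. The median difference of all genes was 0.03 on the log2 scale, and 56.5% of genes were higher with nintedanib and 43.5% lower.

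The levels that chose the mice are given as a description. Dbp, a transcription factor gene driven by the clock, stood between 8.79 and 9.26 in nintedanib mice 83 to 91, with a median of 9.13, against 9.06, 9.22 and 9.27 in vehicle mice 92, 93 and 94. Mouse 82, just outside the boundary, had a Dbp level of 6.19, and vehicle mice 76 to 81 lay between 5.04 and 6.07. Arntl, the gene of the clock's activator BMAL1, stood between 2.86 and 3.71 in nintedanib mice 83 to 91 and at 3.17, 3.53 and 2.91 in vehicle mice 92 to 94, but at 6.01 in mouse 82. In these 2 genes the nintedanib and vehicle mice of the comparison overlapped. Among 13 genes that follow the clock, 10 were higher with nintedanib, against 56.5% of all genes. Their median difference was 0.41, against 0.03 for all genes. Because clock gene levels chose the mice, these 13 genes are described without a test. Levels did not overlap for 3 of the 13, all higher, against 0.687% of all genes. The mean log2 level of the 13 genes was 6.98 to 7.39 in nintedanib mice and 6.75 to 6.85 in vehicle mice, without overlap. Of 14 measured genes of the core clock itself, 10 were higher, with a median difference of 0.14. Their mean level overlapped, at 5.13 to 5.40 in nintedanib mice and 5.15 to 5.26 in vehicle mice. Noct, a clock-driven phosphatase that acts on nicotinamide dinucleotides, stood between 8.26 and 8.94 with nintedanib, against 7.80, 7.62 and 8.24 with vehicle. Nfil3, a repressor of clock output genes, stood between 6.11 and 8.33 with nintedanib, against 5.54, 5.57 and 6.39 with vehicle. The part that these clock output levels have in the differences below was not tested.

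**Figure D1:**
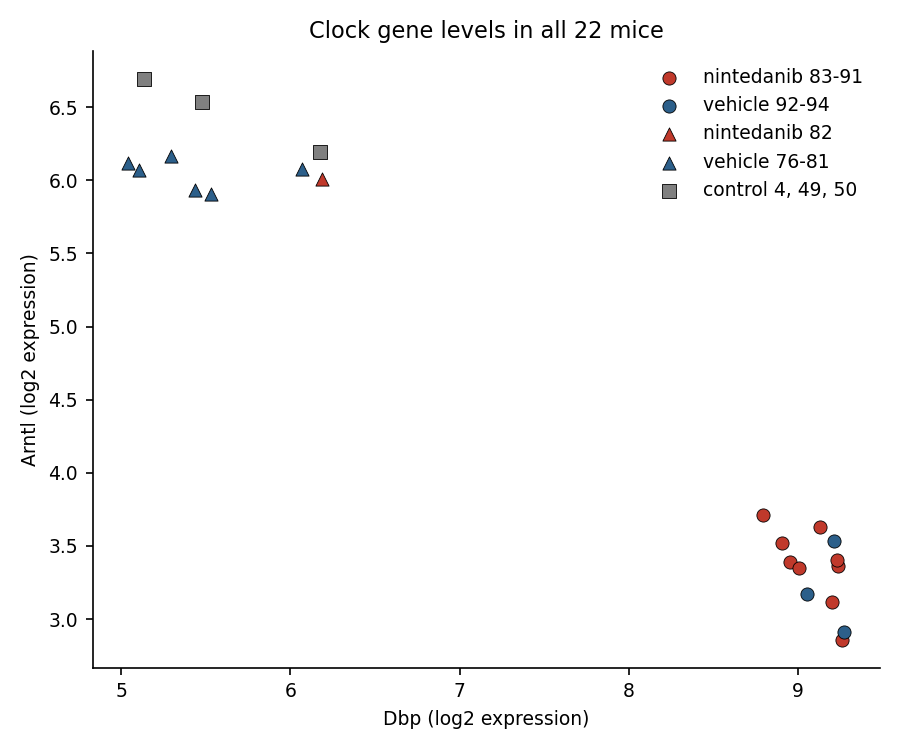
Log2 level of Dbp (x axis) against Arntl (y axis) in all 22 mice, 1 point per mouse, red for nintedanib, blue for vehicle and grey for control. Nintedanib mice 83 to 91 and vehicle mice 92 to 94 lie together at Dbp levels from 8.79 upward, while mice 76 to 82 and the controls lie together at lower Dbp and higher Arntl.

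Arrays of nintedanib mice 89 and 91 stood apart. Their log2 medians were 3.05 and 3.09, against 2.86 to 2.89 on the other 10 arrays. The median correlation with the 11 other arrays was 0.956 and 0.954, against 0.972 to 0.979 for the rest, and the pair correlated with each other at 0.949. Of all genes, 2628 had their highest level of the 12 mice in mouse 89 and 2806 in mouse 91. The median standard deviation of a gene was 0.24 among nintedanib mice, 0.20 without these 2 mice, and 0.17 among vehicle mice. Without mice 89 and 91 the comparison again had no gene past 0.05, 876 genes at an unadjusted p under 0.05 and 278 without overlap. As a check of the tissue, Tat, a liver enzyme of tyrosine breakdown, had a mean level of 10.85 with nintedanib and 10.67 with vehicle. Values exist for only 5 of 22 hepatocyte identity genes, so albumin and similar genes were not analysed here.

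Of all 13392 genes, Mt2 had the highest difference and Id1, described below, the lowest. Mt2 stood between 8.43 (mouse 84) and 10.17 (mouse 83) with nintedanib, with a median of 9.05, against 7.73, 6.32 and 7.05 in vehicle mice 92, 93 and 94. Every nintedanib mouse lay above the highest vehicle mouse, and the log2 difference was 2.27 ± 0.36 (SE, n = 9 and n = 3, limma adjusted p = 0.0885). Mt1 stood between 8.64 (mouse 84) and 9.81 (mouse 89) with nintedanib, with a median of 9.19, against 8.28, 6.90 and 7.70 with vehicle. Again the groups did not overlap, with vehicle mouse 92 nearest to the nintedanib mice, and the difference was 1.56 ± 0.26 (adjusted p = 0.0885). In the 3 healthy controls Mt2 levels were 3.81 to 5.36 and Mt1 levels 5.09 to 6.03, below all vehicle mice of the comparison. The Dbp levels of the controls, 5.13 to 6.18, did not match those of mice 83 to 94. Damaged vehicle mice 76 to 81 had Mt2 levels of 5.26 to 6.97, which overlapped the controls, and Mt1 levels of 6.22 to 7.71, which did not. Leaving out 1 mouse at a time gave Mt2 differences from 1.91 (without vehicle mouse 93) to 2.61 (without vehicle mouse 92). Without mice 89 and 91 the differences were 2.04 for Mt2 and 1.42 for Mt1.

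Both genes lie next to each other on chromosome 8, and their promoters are shown because they were high in the same mice. The sequences are RefSeq's for GRCm38.p6, from 250 bases before to 50 after the gene start, 5′ to 3′ on the plus strand, with Mt2 at chr8:94172368-94172667 and Mt1 at chr8:94178839-94179138. Capitals mark the core of the metal response element, TGCACNC or TGCGCNC on either strand.
Mt2: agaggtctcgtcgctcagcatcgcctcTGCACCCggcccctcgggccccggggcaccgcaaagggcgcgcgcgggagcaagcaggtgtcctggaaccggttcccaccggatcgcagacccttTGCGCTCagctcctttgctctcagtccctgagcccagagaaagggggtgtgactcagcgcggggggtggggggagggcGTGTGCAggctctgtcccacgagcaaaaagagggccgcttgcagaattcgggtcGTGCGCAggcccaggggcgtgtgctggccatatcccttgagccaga
Mt1: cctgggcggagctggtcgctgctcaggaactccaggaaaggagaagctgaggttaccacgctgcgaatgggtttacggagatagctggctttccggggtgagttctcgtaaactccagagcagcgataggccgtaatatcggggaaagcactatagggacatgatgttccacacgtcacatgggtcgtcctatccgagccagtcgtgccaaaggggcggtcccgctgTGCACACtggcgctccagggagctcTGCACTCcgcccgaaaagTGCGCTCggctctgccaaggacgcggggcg
The Mt2 window held 4 such cores and the Mt1 window 3. Of 32851 promoter windows of the same length, 25.7% held at least 1 core, 1.97% at least 3 and 0.517% at least 4. A match is a description of the letters and no measure of binding. The other 6 measured genes of metallothioneins and zinc transporters had no member at an unadjusted p under 0.05, and the median difference of the list of 8 was 0.05.

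Genes known as targets of the glucocorticoid receptor, the receptor for the adrenal stress hormone, were mostly higher. Of 23 measured, 20 were higher with nintedanib, against 56.5% of all genes. At an unadjusted p under 0.05 there were 9 higher and 1 lower, against 2.61% and 2.58% of all genes, and the median difference was 0.38, against 0.03 for all genes. The list includes Mt1, Mt2 and Cebpb, so its counts and its mean level hold these genes again. It was chosen with earlier results in view. The mean level of the list was 7.81 to 8.16 in nintedanib mice, against 7.27 to 7.55 in vehicle mice, without overlap.

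Cebpb, which encodes C/EBP-beta, a factor of the acute phase response and of gluconeogenesis, stood between 9.73 and 10.40 with nintedanib, with a median of 9.91, against 9.08, 9.24 and 9.33 with vehicle. The groups did not overlap, and the difference was 0.77 ± 0.13 (adjusted p = 0.0938). Its relative Cebpd stood between 6.45 (mouse 84) and 7.48 (mouse 89) with nintedanib, against 6.26, 5.70 and 5.72 with vehicle, a difference of 0.94 ± 0.19 (adjusted p = 0.285). Every nintedanib mouse was above every vehicle mouse for Cebpd as well. Fkbp5, a chaperone that restrains the glucocorticoid receptor, had levels from 5.43 to 6.17 with nintedanib, against 5.51, 5.19 and 5.16 with vehicle, and mouse 90 lay within the vehicle range. Tsc22d3, which encodes the anti-inflammatory protein GILZ, had a difference of 0.58 ± 0.22 (adjusted p = 0.955). Klf15, a factor of amino acid breakdown, had one of 0.31 ± 0.13 (adjusted p = 0.955). Dusp1, a phosphatase that switches off MAP kinases, went against the list, with levels from 8.64 to 10.00 with nintedanib against 9.94, 10.00 and 10.21 with vehicle. Its difference was -0.82 ± 0.21 (adjusted p = 0.756).

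Genes of the fasted liver leaned the same way, 15 of 19 measured being higher (56.5% of all genes), with 4 higher and 1 lower at an unadjusted p under 0.05 (2.61% and 2.58% of all genes) and a median difference of 0.33 (0.03 for all genes). Foxo1, the factor that insulin holds out of the nucleus, stood between 6.29 (mouse 86) and 6.81 (mouse 89) with nintedanib, with a median of 6.46, against 5.46, 6.00 and 5.96 with vehicle. The groups did not overlap, and the difference was 0.68 ± 0.14 (adjusted p = 0.36). Lpin1, a phosphatidate phosphatase that also assists PGC-1-alpha, stood between 9.00 (mouse 90) and 10.33 (mouse 84) with nintedanib, against 9.01, 8.46 and 8.38 with vehicle. Only mouse 90 was below the highest vehicle mouse, and the difference was 1.11 ± 0.26 (adjusted p = 0.632). Ppargc1a, which encodes PGC-1-alpha, had a difference of 0.61 ± 0.24 (adjusted p = 0.955), with vehicle mouse 92 inside the nintedanib range. Ppp1r3c, a glycogen-targeting subunit of protein phosphatase 1, stood between 3.62 and 6.27 with nintedanib, against 5.64, 6.77 and 6.29 with vehicle. Its difference of -1.34 ± 0.46 (adjusted p = 0.934) was the largest downward one of the list. The glucose-making enzymes Pck1 and G6pc, in contrast, had differences of 0.15 ± 0.14 and 0.24 ± 0.30.

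Ddit4, which encodes REDD1, an inhibitor of the growth kinase mTORC1 induced by glucocorticoids, fasting and low oxygen, had a difference of 2.06 ± 0.54 (adjusted p = 0.756). Its levels in nintedanib mice spread from 5.72 (mouse 85) to 9.05 (mouse 89), against 5.21, 4.71 and 5.69 with vehicle. All 9 were above the 3, mouse 85 only just. Without mice 89 and 91 the Ddit4 difference was 1.64. Ddit4 belongs to the list of endoplasmic reticulum and integrated stress genes, which leaned the other way. Of 13 measured, 3 were higher and 10 lower (56.5% and 43.5% of all genes), with a median difference of -0.18 (0.03 for all genes). At an unadjusted p under 0.05 there were 2 higher, Ddit4 among them, and 0 lower (2.61% and 2.58% of all genes). Trp53inp1, a p53 target that promotes autophagy, had a difference of 0.76 ± 0.24 (adjusted p = 0.882). Plk2, another p53 target and a polo-like kinase, ran the other way at -0.82 ± 0.17 (adjusted p = 0.42), between 4.75 and 5.55 with nintedanib against 5.88, 5.86 and 6.27 with vehicle, without overlap. Of 15 measured p53 targets, 11 were higher, against 56.5% of all genes, with 3 higher and 1 lower at an unadjusted p under 0.05 (2.61% and 2.58% of all genes) and a median difference of 0.18.

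**Figure D2:**
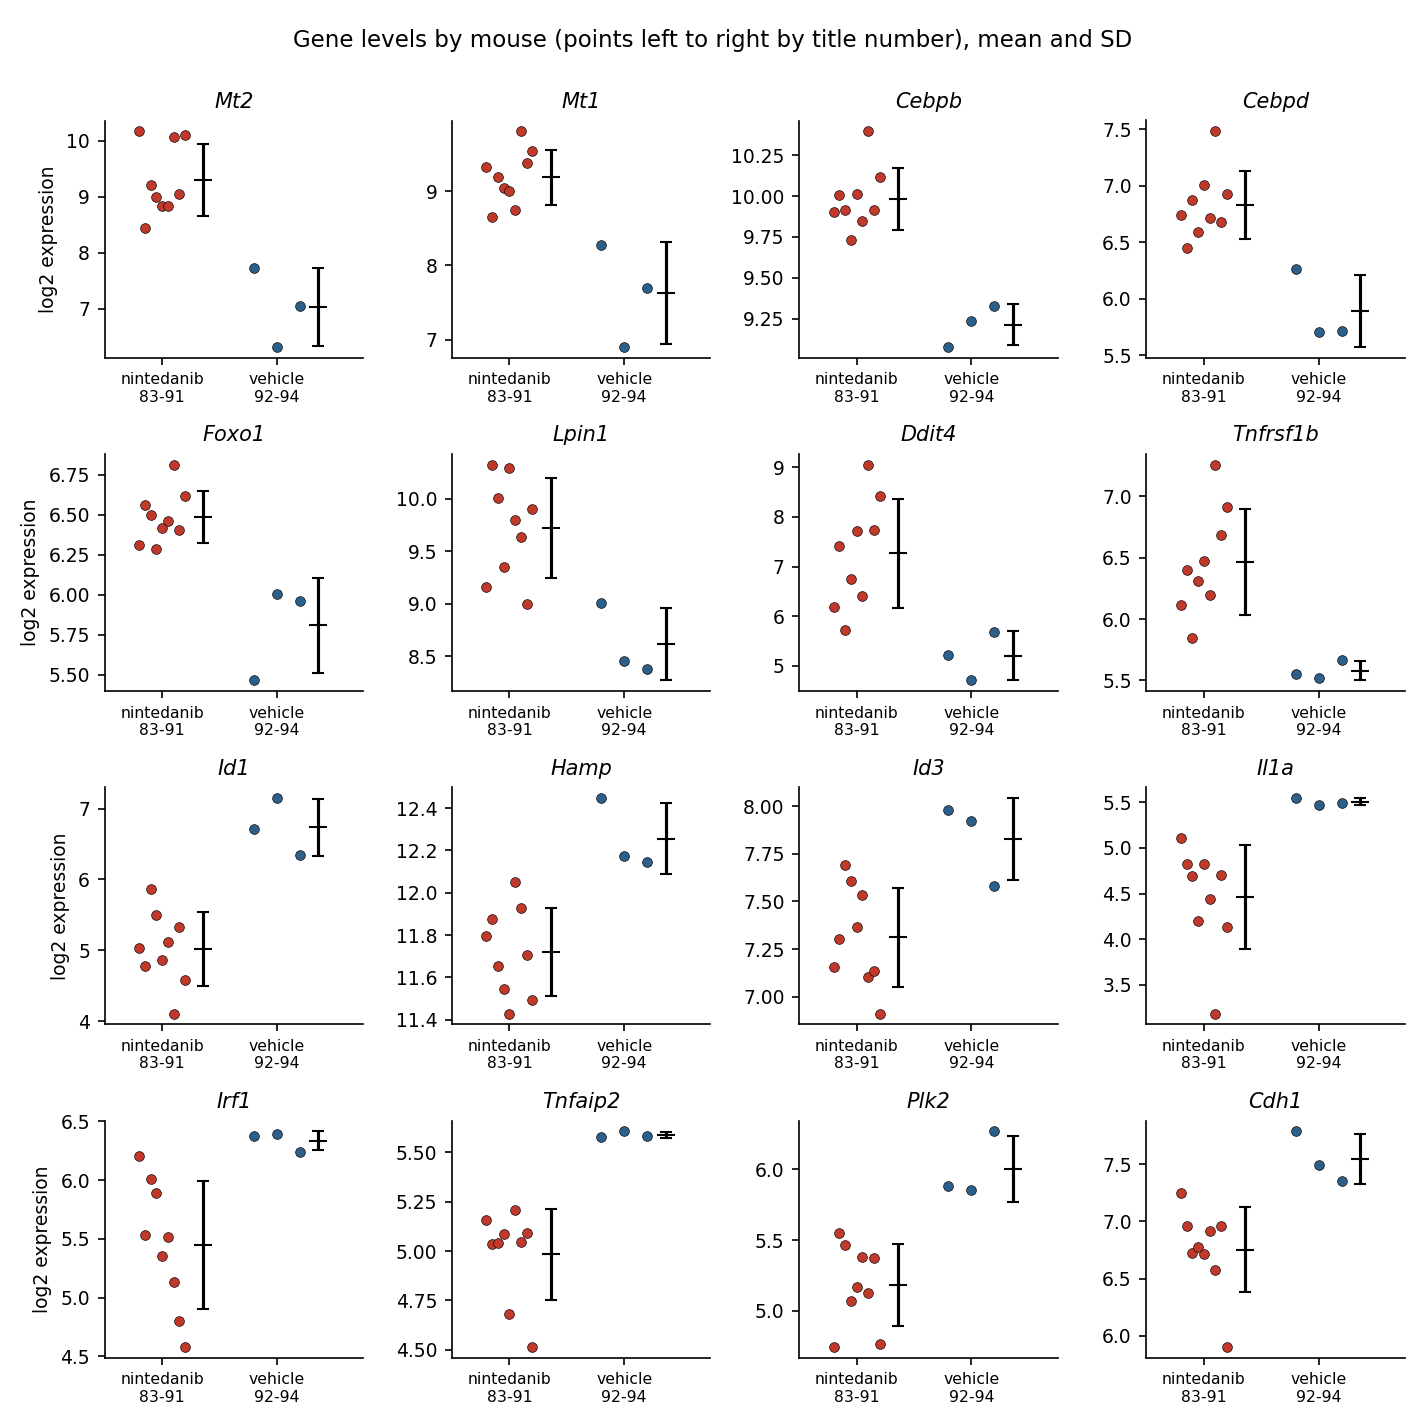
Log2 levels of 16 genes in nintedanib mice 83 to 91 (red, left) and vehicle mice 92 to 94 (blue, right), 1 point per mouse, with the mean and the SD of each group in black. The upper 2 rows hold genes that were higher with nintedanib and the lower 2 rows genes that were lower; Mt2, Mt1, Cebpb, Cebpd, Foxo1, Ddit4 and Id1 show no overlap, while Lpin1 and Id3 overlap slightly.

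Id1 and most other measured genes of BMP and SMAD signalling were lower, and of these only Id1 had an adjusted p under 0.10. Id1, an inhibitor of differentiation factors that SMADs switch on in hepatocytes and endothelial cells, stood between 4.11 (mouse 89) and 5.86 (mouse 85) with nintedanib, with a median of 5.03, against 6.71, 7.15 and 6.35 with vehicle. No nintedanib mouse reached the lowest vehicle mouse, and the difference was -1.71 ± 0.28 (adjusted p = 0.0885). The healthy controls, at 4.87 to 5.59, lay within the nintedanib range, but their Dbp levels of 5.13 to 6.18 did not match those of mice 83 to 94. Damaged vehicle mice 76 to 81, outside the comparison, had Id1 levels of 5.16 to 6.58, which overlapped both the nintedanib and the vehicle range. Without nintedanib mouse 85 the adjusted p of Id1 was 0.0385, the one call made when each mouse was left out in turn, and its difference was then -1.82. Without mice 89 and 91 the Id1 difference was -1.52.

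Hamp, the gene of hepcidin, stood between 11.43 and 12.05 with nintedanib, with a median of 11.71, against 12.45, 12.17 and 12.15 with vehicle. These levels did not overlap, and the difference was -0.54 ± 0.14 (adjusted p = 0.756). Its levels lie near the top of the array's range, where differences can be compressed. The neighbouring copy Hamp2 differed by 0.25 ± 0.26, and as close copies the 2 may share signal. The RefSeq promoter of Hamp, at chr7:30943980-30944279 on the minus strand of GRCm38.p6 and printed 5′ to 3′, is shown for the 2 kinds of site through which BMP and interleukin-6 signals are known to reach it. Capitals mark a SMAD core, GGCGCC, and a STAT site, TTCNNNGAA, both searched on both strands.
Hamp: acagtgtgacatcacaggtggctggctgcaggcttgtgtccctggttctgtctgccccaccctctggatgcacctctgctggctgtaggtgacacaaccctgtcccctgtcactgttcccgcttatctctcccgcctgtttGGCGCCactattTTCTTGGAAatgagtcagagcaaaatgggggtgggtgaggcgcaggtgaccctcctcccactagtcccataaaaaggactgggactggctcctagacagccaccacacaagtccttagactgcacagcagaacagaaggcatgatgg
One of each was found, and 11.9% of the 32851 promoter windows held the first and 8.3% the second.

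Id3, a relative of Id1, had a difference of -0.51 ± 0.16 and Id4 one of -0.70 ± 0.22 (adjusted p = 0.882 for each), the Id4 one being -0.40 without vehicle mouse 92. Smad7, the inhibitory SMAD that SMAD signalling itself switches on, had one of -0.54 ± 0.20 (adjusted p = 0.949). Vehicle mouse 94 lay inside the nintedanib range for these 3 genes. Of 14 measured genes of the list, 11 were lower and 3 higher, against 43.5% and 56.5% of all genes. At an unadjusted p under 0.05 there were 5 lower and none higher (2.58% and 2.61% of all genes), and the median difference was -0.19, against 0.03 for all genes. The mean level of the list was 5.26 to 5.52 in nintedanib mice, against 5.62 to 5.78 in vehicle mice, without overlap. Id1, with the lowest difference of the list, is part of that mean. The ligand gene Bmp2, made by endothelial cells, had a difference of -0.25 ± 0.21, and Smad6, the other inhibitory SMAD, one of -0.12 ± 0.18. Atoh8, another gene of the list, ran the other way, with the highest difference of the list (0.44 ± 0.28, adjusted p = 0.955).

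The genes of the receptors that nintedanib inhibits gave no call. All 8 differences were below 0 (43.5% of all genes), from -0.22 to -0.01 on the log2 scale, but none at an unadjusted p under 0.05. Kdr, the main VEGF receptor of endothelial cells, stood between 6.50 and 6.99 with nintedanib, against 6.92, 6.88 and 6.69 with vehicle, a difference of -0.21 ± 0.12 (adjusted p = 0.955). Fgfr2 had a difference of -0.22 ± 0.16, Flt1 -0.18 ± 0.15, Pdgfra -0.14 ± 0.15, Fgfr3 -0.12 ± 0.16, Pdgfrb -0.08 ± 0.18, Fgfr1 -0.06 ± 0.13 and Flt4 -0.01 ± 0.15. Without 1 vehicle mouse the Flt1 difference ran from -0.30 to -0.08 and that of Fgfr3 from -0.25 to -0.03. The sign turned under at least 1 other processing or set of mice for Pdgfra, Pdgfrb, Fgfr1, Fgfr3 and Flt4. Their ligands showed 7 of 17 genes higher (56.5% of all genes), none of the 17 at an unadjusted p under 0.05, and Vegfa differed by -0.05 ± 0.14.

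Of 19 endothelial genes 16 were lower with nintedanib (43.5% of all genes), 4 of them at an unadjusted p under 0.05 (2.58% of all genes lower), with a median difference of -0.09, against 0.03 for all genes. Cldn5, a tight junction protein of vessels, stood between 4.55 (mouse 89) and 5.50 (mouse 91) with nintedanib, against 5.90, 5.18 and 5.43 with vehicle. Its difference was -0.70 ± 0.19 (adjusted p = 0.756), and mouse 91 alone lay above 2 of the 3 vehicle mice. Sox17, an endothelial transcription factor, had a difference of -0.39 ± 0.14 (adjusted p = 0.949), the surface protein genes Emcn -0.37 ± 0.15 and Pecam1 -0.44 ± 0.22 (adjusted p = 0.955 for both). Without vehicle mouse 93 the Emcn difference was -0.23. The mean level of the 19 genes was 4.27 to 4.49 with nintedanib and 4.47 to 4.55 with vehicle, so the groups overlapped slightly. Of 11 sinusoidal endothelial genes 3 were higher and 8 lower (56.5% and 43.5% of all genes), with a median difference of -0.10. At an unadjusted p under 0.05 there was 1 each way (2.61% and 2.58% of all genes). Ehd3, a membrane-trafficking protein of sinusoidal and glomerular endothelium, stood between 7.35 and 7.67 with nintedanib, against 7.09, 7.20 and 6.91 with vehicle, above all of them (difference 0.40 ± 0.11, adjusted p = 0.756). The scavenger receptor gene Stab1 had a difference of -0.31 ± 0.11 (adjusted p = 0.934).

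Several cytokine and interferon genes were lower. Il1a, the gene of interleukin-1-alpha, stood between 3.19 (mouse 89) and 5.11 (mouse 83) with nintedanib, with a median of 4.70, against 5.55, 5.47 and 5.50 with vehicle. The groups did not overlap, and the difference was -1.05 ± 0.29 (adjusted p = 0.756), or -0.82 without mice 89 and 91. Tnfaip2, a gene induced by tumour necrosis factor, stood between 4.51 and 5.21 with nintedanib and at 5.58, 5.61 and 5.58 with vehicle (difference -0.60 ± 0.14, adjusted p = 0.632). Il1b had a difference of -0.55 ± 0.24 and the receptor gene Il1r1, higher, one of 0.46 ± 0.19 (adjusted p = 0.955 for both). The Il1b difference depended on single vehicle mice, being -0.94 without mouse 92 and -0.25 without mouse 94. The receptor gene Tnfrsf1b was higher in all nintedanib mice, from 5.84 to 7.26, against 5.55, 5.52 and 5.67 with vehicle, a difference of 0.89 ± 0.23 (adjusted p = 0.756). Over the interleukin-1 and NF-kB list, 6 of 15 genes were higher and 9 lower (56.5% and 43.5% of all genes), with a median of -0.08. At an unadjusted p under 0.05 there were 2 higher and 4 lower (2.61% and 2.58% of all genes).

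Irf1, a transcription factor induced by interferon-gamma, stood between 4.58 (mouse 91) and 6.20 (mouse 83) with nintedanib, against 6.37, 6.39 and 6.24 with vehicle. Mouse 83 came within a small step of vehicle mouse 94, with no overlap, and the difference was -0.89 ± 0.28 (adjusted p = 0.882). Of 17 interferon-gamma genes 12 were lower (43.5% of all genes), 3 at an unadjusted p under 0.05 (2.58% of all genes), none of the other 5 reached that level, and the median was -0.15.

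B cell genes were lower in 14 of 16 cases (43.5% of all genes), 3 of them at an unadjusted p under 0.05 (2.58% of all genes), with a median difference of -0.14, against 0.03 for all genes. The B cell receptor chain gene Cd79b stood between 3.51 and 4.35 with nintedanib, against 4.94, 4.45 and 4.36 with vehicle, and its difference was -0.54 ± 0.17 (adjusted p = 0.882), or -0.36 without vehicle mouse 92. Blnk, a B cell adaptor, had a difference of -0.62 ± 0.22 and Ms4a1, the gene of CD20, one of -0.44 ± 0.17 (adjusted p = 0.934 and 0.955). Of the MHC class II genes 9 of 10 were lower, 2 of them at an unadjusted p under 0.05 (43.5% and 2.58% of all genes), with a median of -0.11 and H2-Eb1 at -0.33 ± 0.15. Among T cell genes 8 of 19 were higher (56.5% of all genes) and the median difference was -0.00. The transcription factor gene Tox stood between 3.44 and 4.10 with nintedanib, against 2.93, 3.21 and 3.25 with vehicle, without overlap but close to the array medians, where values carry little signal. Kupffer cell genes were higher in 3 of 10 cases (56.5% of all genes), with a median of -0.04. Only 1 of the 10, lower, was at an unadjusted p under 0.05 (2.58% of all genes). That was Timd4, a receptor of resident macrophages, between 2.97 and 3.66 with nintedanib against 3.81, 4.08 and 3.88 with vehicle (difference -0.54 ± 0.15, adjusted p = 0.828), levels again close to the array medians. The Kupffer marker Clec4f differed by -0.09 ± 0.12 and the scavenger receptor genes Cd163 and Marco by 0.20 ± 0.13 and 0.05 ± 0.28.

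Matrix genes, which mark the fibrosis of this model, gave no call. Of 33 collagen and matrix genes 11 were higher and 22 lower (56.5% and 43.5% of all genes), none at an unadjusted p under 0.05, and the median difference was -0.05, against 0.03 for all genes. Their mean level was 4.97 to 5.44 with nintedanib and 5.08 to 5.30 with vehicle, against 4.32 to 4.46 in the 3 controls, so both damaged groups stood above the controls and overlapped each other. Stellate and myofibroblast genes were higher in 8 of 18 cases (56.5% of all genes). For proliferation, 22 of 29 cell cycle genes were lower with nintedanib (43.5% of all genes) and 6 of them at an unadjusted p under 0.05 (2.58% of all genes), with a median of -0.07. Ccnd1, which encodes cyclin D1, stood between 6.42 (mouse 89) and 7.60 (mouse 86) with nintedanib, against 8.54, 7.42 and 7.73 with vehicle (difference -0.73 ± 0.24, adjusted p = 0.882), and its difference was -0.41 without vehicle mouse 92. The replication helicase gene Mcm6 stood between 3.63 and 4.52 with nintedanib and at 4.60, 4.89 and 4.55 with vehicle (-0.47 ± 0.16, adjusted p = 0.931), while the mitotic cyclin gene Ccnb2 overlapped (-0.65 ± 0.23).

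Further genes of the liver cell itself differed without passing the test. Cdh1, the gene of E-cadherin, which joins hepatocytes of the portal zone, stood between 5.90 (mouse 91) and 7.25 (mouse 83) with nintedanib, against 7.79, 7.49 and 7.36 with vehicle (difference -0.79 ± 0.21, adjusted p = 0.756). F11, coagulation factor XI, stood between 6.58 and 7.18 with nintedanib and at 7.93, 7.78 and 7.33 with vehicle (-0.68 ± 0.15, adjusted p = 0.597). Neither gene overlapped between the groups. St3gal5, the synthase of the ganglioside GM3, stood between 8.24 and 8.68 with nintedanib, against 7.75, 7.85 and 7.82 with vehicle (0.60 ± 0.11, adjusted p = 0.239). Cyp2b9, a cytochrome P450 typical of female liver, had a difference of 1.60 ± 0.47 (adjusted p = 0.828), from 5.32 to 8.18 with nintedanib and 6.01, 4.87 and 4.60 with vehicle. Slco1a1, an uptake transporter typical of male liver, had a difference of -0.89 ± 0.36 (adjusted p = 0.955), or -0.52 without vehicle mouse 93.

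Fatty acid oxidation genes driven by PPAR-alpha were higher in 15 of 16 cases (56.5% of all genes), yet none at an unadjusted p under 0.05, with a median difference of 0.24 (0.03 for all genes) and Cyp4a14, a fatty acid hydroxylase, at 0.48 ± 0.26. Cholesterol synthesis genes were all lower, 9 of 9 measured (43.5% of all genes), again none at an unadjusted p under 0.05, with a median of -0.29. Nintedanib mouse 83 had the highest mean cholesterol synthesis level of the 12 (8.22), against 7.12 to 7.79 in vehicle mice.

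**Figure D3:**
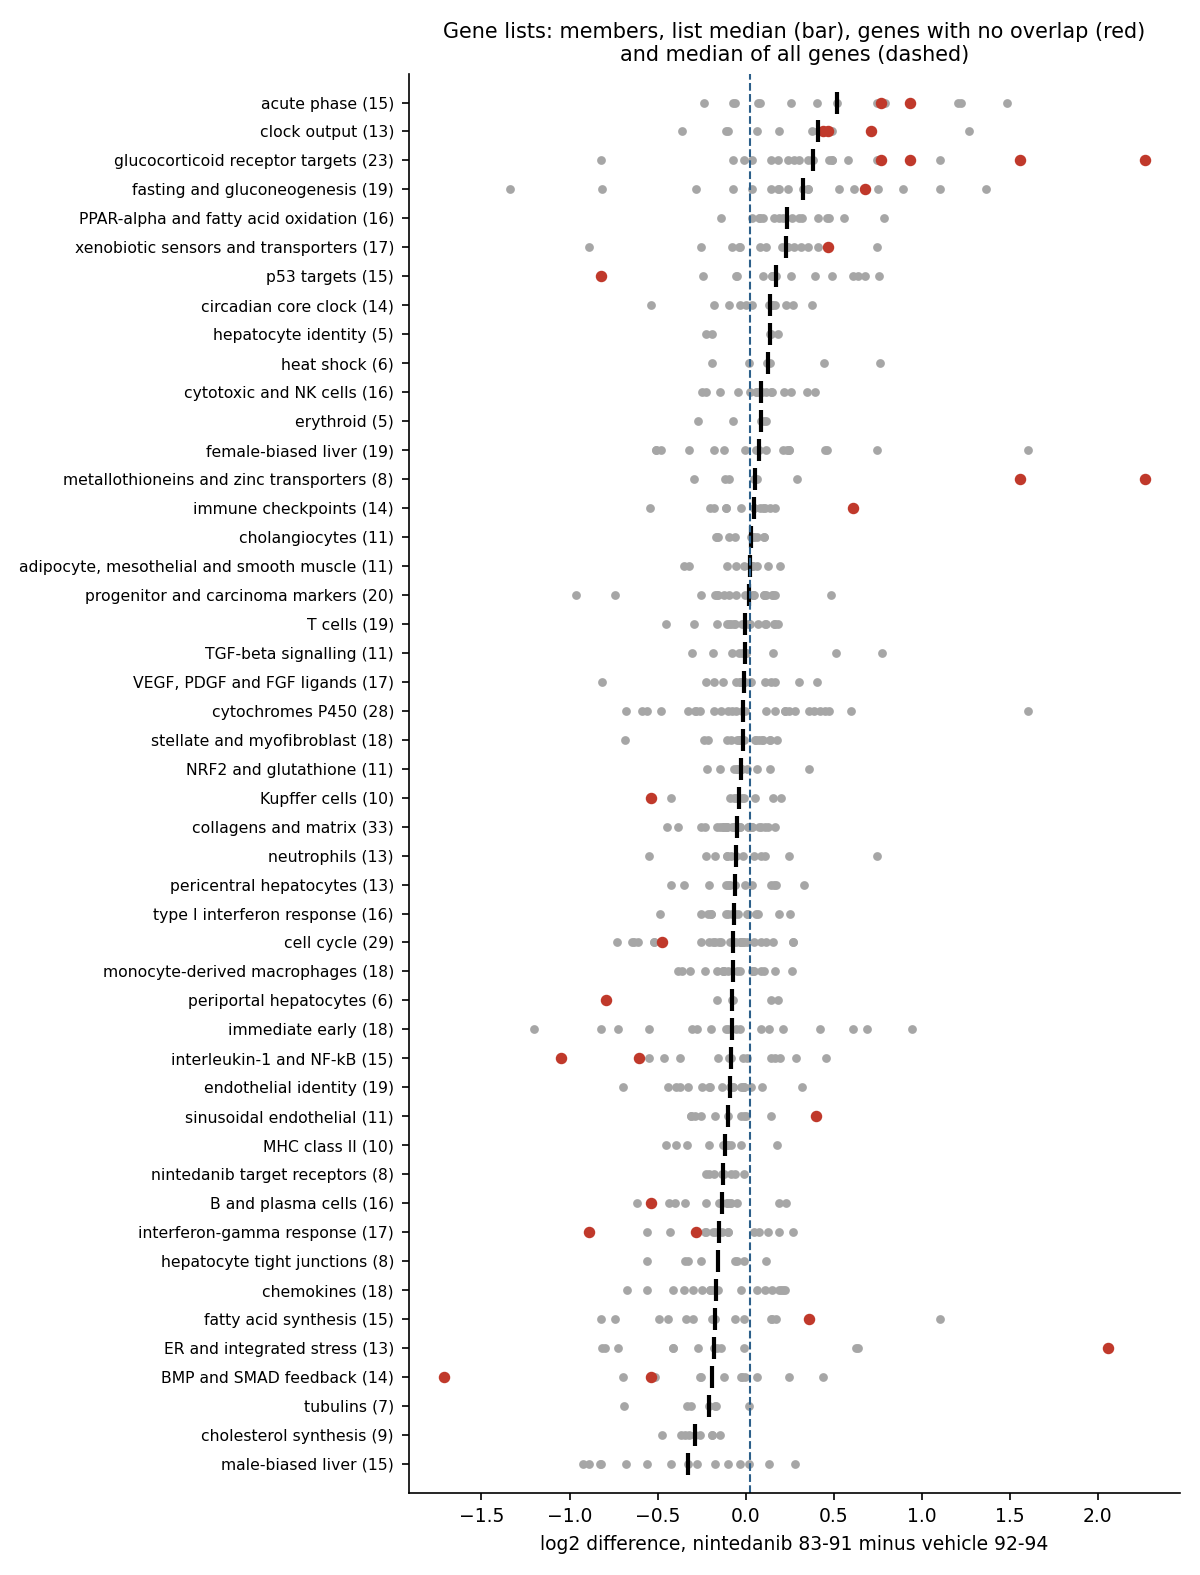
Log2 differences (x axis, nintedanib 83 to 91 minus vehicle 92 to 94) of the members of each gene list with at least 5 measured genes (y axis, number measured in brackets), with the list median as a black bar, genes without overlap in red and the median of all genes dashed at 0.03. Medians run from -0.33 for genes typical of male liver to 0.52 for the acute phase list.

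The nintedanib mice varied most among themselves in acute phase genes, secreted proteins of the inflamed liver. Saa2, a serum amyloid A gene, stood at 12.20 in mouse 83 and 10.19 in mouse 89, between 4.48 and 7.20 in the other 7, and at 5.60, 5.29 and 5.56 with vehicle. Its SD was 2.64 among nintedanib mice and 0.17 among vehicle mice. Saa1, Orm2, Orm3 and Lcn2 likewise had their highest level in mouse 83 and the next in mouse 89, with mice 85 and 88 in the third and the fourth places. Saa1 and Saa2, and the Orm genes, are close copies of each other, so their probes may share signal. Of these 5 genes none differed between the groups at an unadjusted p under 0.05, with Saa1 at 1.21 ± 1.01 and Lcn2, an iron-binding protein of the innate response, at 0.75 ± 0.90. In the healthy controls Saa1 also ranged widely, from 8.71 to 12.16. Cebpb and Cebpd were above the vehicle mice in the nintedanib mice with low Saa2 too. Over the acute phase list, 12 of 15 measured genes were higher with nintedanib (56.5% of all genes), with a median difference of 0.52 (0.03 for all genes). At an unadjusted p under 0.05 there were 3 higher, Cebpb and Cebpd among them, and 0 lower (2.61% and 2.58% of all genes).

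**Figure D4:**
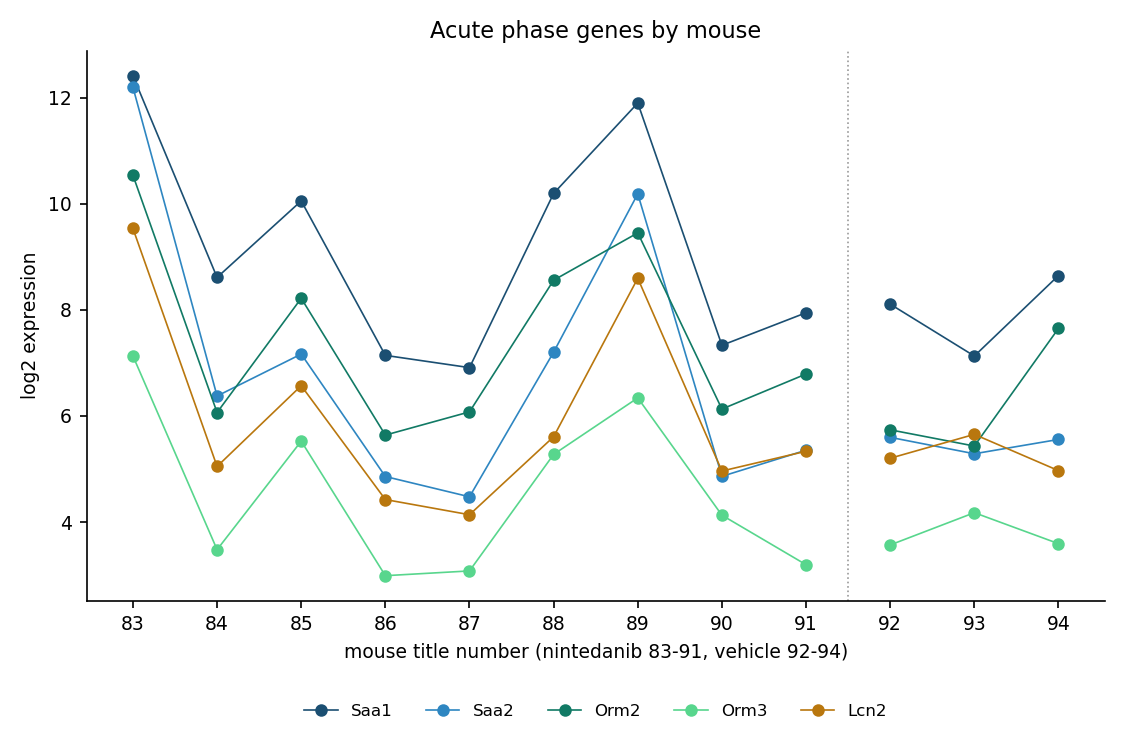
Log2 level (y axis) of Saa1, Saa2, Orm2, Orm3 and Lcn2 in nintedanib mice 83 to 91 and vehicle mice 92 to 94 (x axis, by title number, parted by the dotted line), 1 point per mouse and gene. The lines peak together in mice 83 and 89, where Saa2 reached 12.20 and 10.19.

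Mice 76 to 82 and 83 to 94 are called runs here, after their title numbers and clock gene levels, since no label names them. Mouse 82 and vehicle mice 76 to 81, which share no mouse with the comparison, give the same contrast with 1 nintedanib mouse and no error of its own. Of the 24 genes named for the smallest p at a mean level of at least 4, 12 in each direction, 21 had the same sign there. They were 11 of the 12 higher and 10 of the 12 lower, the lower ones counting Id1 at -0.00 and Cdh1 at -0.05. The share was 47.0% of all genes, 51.4% of the 695 and 49.7% of the 159 without overlap, sets with no such floor on level. Mt2 stood at 9.88 in mouse 82, against 5.26 to 6.97 in vehicle mice 76 to 81, and Mt1 at 9.71, against 6.22 to 7.71. Cebpb, at 9.95 against 9.21 to 9.47, and Lpin1, at 9.05 against 7.35 to 8.22, were also outside the vehicle range. Mouse 82 lay outside that range in the same direction for 7 of the 12 higher genes (58.3%) and 4 of the 12 lower ones (33.3%). The shares were 11.9% of all higher and 14.7% of all lower genes, again with no floor on level. Id1, at 5.79 in mouse 82, lay within the 5.16 to 6.58 of vehicle mice 76 to 81, a difference of -0.00. Foxo1, at 5.83, likewise lay within 5.58 to 5.86.

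A direct limma test of the difference between both runs of mice, in which mouse 82 was assumed to vary like the other groups, gave no gene at an adjusted p under 0.05 (percent called 0.0) and 561 at an unadjusted p under 0.05 (4.19%). For Id1 that difference of differences was -1.71 ± 0.55 (adjusted p = 0.992). For Egr1, an immediate early gene of growth factor signalling, it was -2.51 ± 0.85 (adjusted p = 0.992). Cell cycle genes had a median of -0.07 within mice 83 to 94 and of 0.21 for mouse 82 against vehicle mice 76 to 81. Medians also turned for cholesterol synthesis genes (-0.29 and 0.64), PPAR-alpha genes (0.24 and -0.16) and matrix genes (-0.05 and 0.18). Among the lists whose median kept its sign were glucocorticoid receptor targets (0.38 and 0.37), BMP and SMAD genes (-0.19 and -0.11) and B cell genes (-0.14 and -0.22). The medians of all genes were 0.03 and -0.03.

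**Figure D5:**
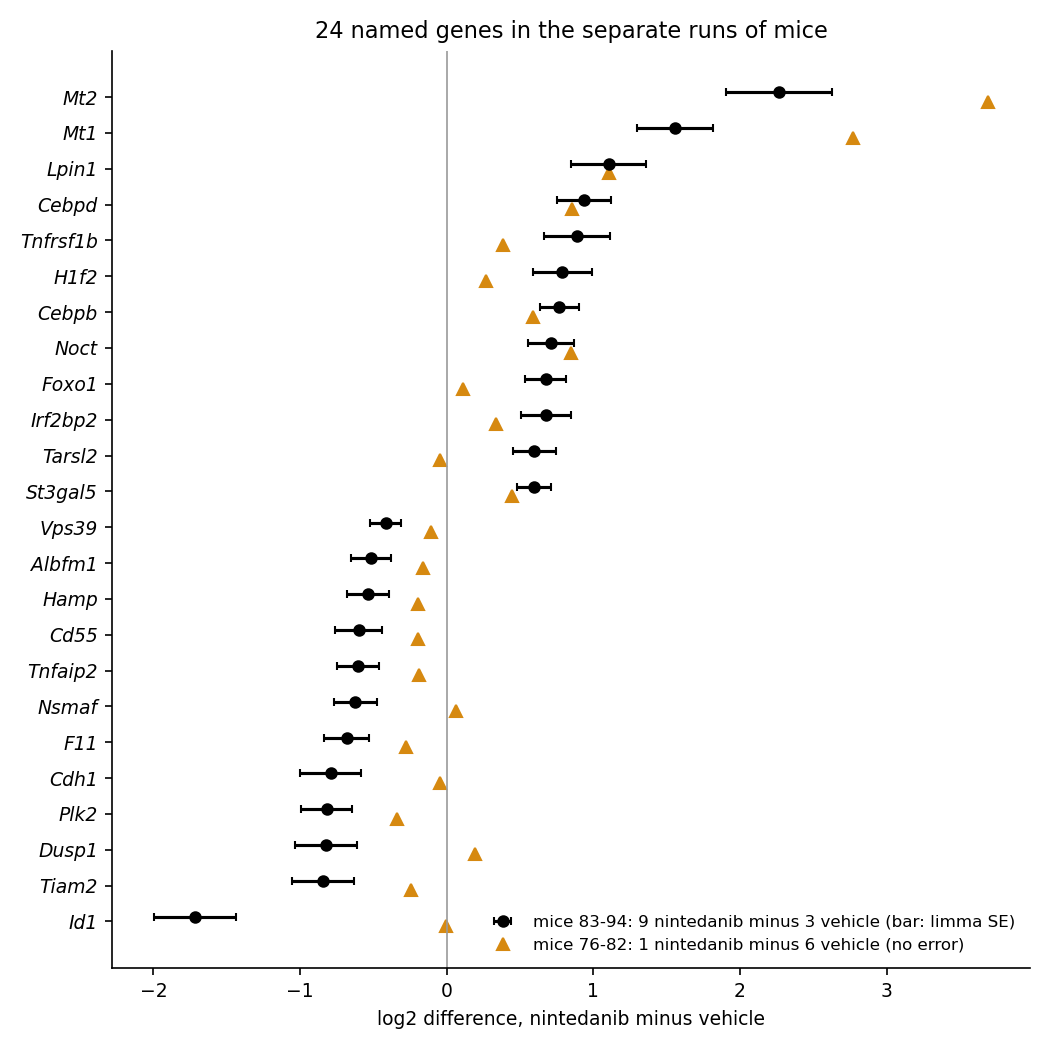
Log2 difference (x axis, nintedanib minus vehicle) of 24 named genes (y axis), the 12 per direction with the smallest p at a mean level of at least 4. Black points with the limma SE are mice 83 to 94, and orange triangles without error are mouse 82 minus vehicle mice 76 to 81. Of the triangles, 21 lie on the same side of 0 as the black point, with Mt2 and Mt1 farthest out, and the Id1 triangle lies at -0.00.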

How the data were processed

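The authors deposited log2 levels from the robust multiarray average, computed over probe sets redefined as 1 per Entrez gene, per the series' design text; software versions are not given in the sources used here. That method makes the distribution of arrays alike and compresses differences at low and very high levels. Symbols came by Entrez ID from the RefSeq table of GRCm38.p6, which named 13242 of 13392 genes. The deposited log2 values were used without a filter.

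The 12 arrays were fitted as 2 group means (10 residual degrees of freedom) by lmFit and eBayes of limma 3.58.1 (R 4.3.3), 2-sided, with Benjamini-Hochberg adjustment over all genes and a threshold of 0.05. The difference between runs of mice came from all 22 arrays as 5 means. The number of arrays limits the precision. The fit was tested on simulated data.

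The mice, the 49 gene lists and the genes were chosen with earlier results of these data known, so lists are described by counts and medians, set beside those of all genes, without a test, and a list level is the mean log2 level of its measured members. Genes named were the 12 per direction with the smallest p at a mean level of at least 4 and up to 4 of each list. Genes from earlier results, clock genes and the 10 with the largest SD were named too. Not all are printed, and Atoh8, G6pc, Hamp2, Bmp2, Smad6, Vegfa and Clec4f were added after their values were seen. The 26 oxidative phosphorylation genes listed have no value here. Alternatives were another spread estimate, array weights, a filter on dim genes, 2 normalizations, other sets of mice and leaving out each mouse.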

Additional observations from a re-analysis of the deposited data

Results flagged for a closer look

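Among nintedanib mice 83 to 91, 90 groups of levels were checked for a single mouse far from the other 8, and 5 had one, where chance at 1 in 20 gives 4.5. Mouse 90 had an Egr1 level of 9.40, with the next highest at 7.19, and the vehicle mice stood at 8.91, 8.09 and 7.57, so this mouse alone lay above them. Mouse 91 had the lowest Cdh1 level, 5.90, with the next at 6.57, and the highest Kdr level, 6.99, with the next at 6.70. Mouse 89 had the highest Klf15 level, 9.67, with the next at 9.31. Mouse 88 had the lowest Fgfr3 level, 4.17, with the next at 4.66. Arrays 89 and 91 are the pair that stood apart over all genes, and the part of that in these levels was not tested.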

How the results depend on the processing

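No gene passed 0.05 with trend and robust variance, without the 25% dimmest genes, with arrays centred on their medians, with the quantile normalization repeated or without mice 89 and 91. With the spread from all 22 arrays, and likewise at a threshold of 0.10, 3 genes were higher and 1 lower. With array weights, which gave mice 89 and 91 weights of 0.41 and 0.35, 5 were higher (Mt1, Mt2, Cebpb, Cebpd and St3gal5) and 1 lower (Id1). All 19 damaged mice, with the run (76 to 82 or 83 to 94, drawn from title numbers and clock gene levels and not from a label) as a block, gave 5 higher (Mt1, Mt2, Cebpb, Cebpd and Lpin1) and 0 lower, and without the block 46 higher and 29 lower, 1400 at an unadjusted p under 0.05 and 9 without overlap. Genes without overlap numbered 278 without mice 89 and 91. Leaving out 1 mouse gave 0 higher genes, 0 to 1 lower (Id1, without mouse 85), 478 to 769 at an unadjusted p under 0.05 and 184 to 550 without overlap, above 1.5 times the full count of 159 without vehicle mouse 92 (479), 93 (433) or 94 (550) and without nintedanib mouse 83 (245); fewer mice overlap less by construction. The adjusted p of Mt2 ran from 1.31e-05 to 0.928 over all these settings, that of Cebpb from 0.000133 to 0.928, that of Id1 from 0.0214 to 0.928 and that of Foxo1 from 0.00218 to 0.999. Of 68 genes followed, signs turned for Flt4 (0.041 with quantile normalization, -0.050 to 0.046 without 1 mouse), Pdgfra (0.0043 with the block), Pdgfrb (0.062 with the block, -0.25 to 0.028 without 1 mouse), Fgfr1 (0.024 with no block, -0.15 to 0.014 without 1 mouse), Fgfr3 (0.035 with no block) and Cd34 (0.055 with no block); the cause was not tested. Centring on array medians moved the median difference of all genes to -0.03. No gene passed for the difference between runs under any of its 4 alternatives. Overlap was not counted with the block. No paired analysis was possible because the groups share no replicate number.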
